A study of Mus musculus with 12 samples.

Results

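Hgfac and 7 other genes of hepatocyte growth factor (HGF) activation and MET signalling were examined in mouse proximal colon with and without the long non-coding RNA EPR. The 8 genes were picked by symbol from the 55376 genes of the count table: the ligands Hgf and Mst1, the receptors Met and Mst1r, the proteases Hgfac and St14, and the protease inhibitors Spint1 and Spint2. They were selected with the difference between EPR cKO and EPR fl/fl already known for these libraries, so that difference is given for them as a description and without a p-value. EPR is expressed in epithelial cells and is listed in the table as Smim31. EPR cKO mice lack it in the colon, and EPR fl/fl mice are the controls. All 12 mice, 6 per group and 12 weeks old, carried loxP sites around the EPR promoter and exon 1 on both alleles, as the titles and methods of the study give it, although the genotype label of the controls reads wt. The EPR cKO mice carried in addition the CDX2P-NLS Cre transgene, in which regulatory sequence of human CDX2 drives Cre in epithelial cells of the large intestine and the end of the ileum. The EPR fl/fl controls had no Cre, so effects of the transgene and of the deletion cannot be told apart. One total RNA library was made per mouse from the whole proximal part of the colon, which holds muscle and connective tissue as well as epithelium. The protocol label also describes fractionation of isolated crypts, but smooth muscle markers were present in every library.

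HGF is secreted, mainly by mesenchymal cells, as a single-chain precursor that binds its receptor MET but does not activate it until a serine protease cuts it. HGF activator, the product of Hgfac, is a plasma protease made chiefly in the liver, and matriptase (St14) and hepsin (Hpn) are membrane-bound proteases that can make the same cut. The Kunitz-type inhibitors HAI-1 (Spint1) and HAI-2 (Spint2) hold these proteases in check on epithelial cells. Macrophage-stimulating protein (Mst1) and its receptor RON (Mst1r) are the closest relatives of the HGF and MET pair and are activated in a similar way.

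The start regions of Hgfac, Met and Spint1 are shown because these are the 3 genes described below whose EPR cKO libraries did not overlap with the EPR fl/fl libraries. Each sequence covers 250 bases before to 50 bases after the RefSeq transcript start in GRCm38.p6, written 5′ to 3′ on the strand of the gene. Capitals mark the letters of the motifs searched for, on either strand: HNF1 (GTTAATNAT and its core GTTAAT), the GC box (GGGCGG) and the CCAAT box (CCAAT). The motifs were picked after the sequences had been seen.
Hgfac, chr5:35041259-35041558, plus strand: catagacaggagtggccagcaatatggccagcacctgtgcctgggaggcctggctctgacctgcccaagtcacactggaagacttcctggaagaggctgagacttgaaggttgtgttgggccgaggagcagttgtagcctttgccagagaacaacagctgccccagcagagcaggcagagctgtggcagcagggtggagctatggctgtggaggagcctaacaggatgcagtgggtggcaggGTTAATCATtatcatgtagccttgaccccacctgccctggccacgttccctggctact
Met, chr6:17463707-17464006, plus strand: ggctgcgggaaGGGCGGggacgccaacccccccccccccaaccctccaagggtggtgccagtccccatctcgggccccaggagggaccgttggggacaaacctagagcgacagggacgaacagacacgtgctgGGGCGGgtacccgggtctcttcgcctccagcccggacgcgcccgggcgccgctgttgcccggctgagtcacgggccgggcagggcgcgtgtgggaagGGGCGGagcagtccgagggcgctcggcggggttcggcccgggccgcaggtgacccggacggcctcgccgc
Spint1, chr2:119237110-119237409, plus strand: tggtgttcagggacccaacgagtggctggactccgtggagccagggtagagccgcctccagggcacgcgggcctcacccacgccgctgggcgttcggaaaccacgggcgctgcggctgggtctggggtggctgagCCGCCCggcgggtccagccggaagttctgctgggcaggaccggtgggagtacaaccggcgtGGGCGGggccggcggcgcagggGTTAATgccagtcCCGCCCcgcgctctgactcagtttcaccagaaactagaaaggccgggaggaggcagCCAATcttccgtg

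The Hgfac region had a base composition unlike that of Met and Spint1. It held 2 CpG dinucleotides at 58.3% GC, an observed-to-expected CpG ratio of 0.0795, against a median ratio of 0.384 over 32851 RefSeq start regions of the same length. The Met region held 34 CpG dinucleotides (ratio 0.794) and the Spint1 region 28 (ratio 0.78), and that of Spint2 held 26 (ratio 0.729). The regions of Hgf, Mst1 and Mst1r lay lower, with ratios between 0.208 and 0.38. The Hgfac region held 1 match to the HNF1 letters, on the plus strand from position -8 to 1 around the start, which also contains the core. These letters were found in 0.801% of all start regions, and the core in 7.1%. Met held 3 GC boxes, and Spint1 held 3 GC boxes, 1 HNF1 core and 1 CCAAT box; the GC box was found in 35.7% of all start regions and the CCAAT box in 37.4%. The letters searched for CDX (TTTATG, in 11.9% of all start regions) and FOXA (TGTTTAC, in 3.65%) did not occur in any of the 3 printed regions. Neither did those for GATA factors, spelled AGATAA and found in 11.2%, or for the TATA box, spelled TATAAA and found in 13.6%. A match describes the letters of the sequence and not a bound site. A RefSeq start region was found for 7 of the 8 genes, St14 being the one without.

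The libraries held between 13093904 and 33211041 counts assigned to genes. EPR lay between 22.7 and 50.8 CPM (counts scaled to the size of the library) in EPR fl/fl, against between 0 and 0.425 CPM in EPR cKO. Markers of epithelium, such as Epcam and Krt8, were present in every library and summed to 7787 to 12100 CPM in EPR fl/fl, against 9612 to 14600 CPM in EPR cKO. The mixture of tissue layers varied more among EPR cKO libraries than among EPR fl/fl libraries. A score of epithelial over smooth muscle markers (the difference of their mean log2 CPM) ran from 0.69 to 1.41 in EPR fl/fl, against from -0.21 (replicate 1) to 3.48 (replicate 5) in EPR cKO. EPR cKO replicate 1 stood apart at the low end, with replicates 4 to 6 of EPR cKO at the high end, so results that changed without replicate 1 are also given without it. In whole tissue, fewer cells of a type and less RNA per cell cannot be told apart.

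Hgfac was lower in EPR cKO than in EPR fl/fl. The gene lies on chr5:35041509-35048424, plus strand (GRCm38). In EPR fl/fl its lowest library was at 93.21 CPM, the median at 101.7 CPM and the highest at 155.7 CPM. In EPR cKO the lowest was at 29.23 CPM, the median at 41.54 CPM and the highest at 46.3 CPM. Every EPR cKO library lay below every EPR fl/fl library. The EPR fl/fl libraries were spread more widely than the EPR cKO libraries, with EPR fl/fl replicates 3 and 4 highest. The mean was 112.7 ± 23.9 CPM (SD, n = 6) in EPR fl/fl, against 40.6 ± 6.19 CPM (SD, n = 6) in EPR cKO, 36.05% of the control level. The fitted log2 fold change was -1.47 (SE 0.14, 95% interval -1.78 to -1.17), and it was -1.41 without EPR cKO replicate 1. By size of the fold change Hgfac ranked 93 from the lowest among the 15952 genes tested. Transcripts of Hgfac shared none of their 50-base stretches with the transcripts of another gene.

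**Figure D1:**
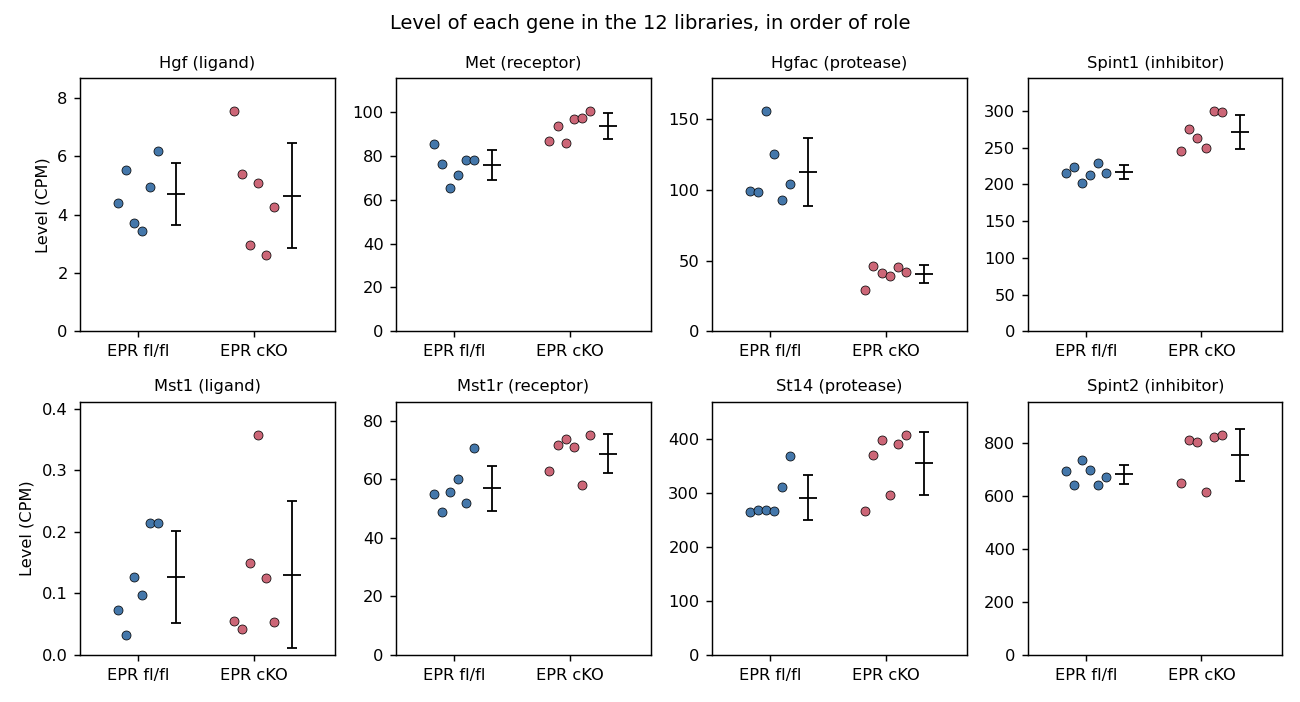
Level of each of the 8 genes in CPM (vertical axes, each starting at 0) in the 6 EPR fl/fl libraries (blue points) and the 6 EPR cKO libraries (red points), with the mean and SD beside the points. Hgfac is the only panel in which all 6 red points lie below all 6 blue points, at 29.23 to 46.3 CPM against 93.21 to 155.7 CPM.

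Both ligands were scarce. Hgf, on chr5:16553550-16620152 (plus strand), ran from 3.446 CPM through a median of 4.67 CPM to 6.185 CPM in EPR fl/fl. In EPR cKO it ran from 2.619 CPM through a median of 4.677 CPM to 7.542 CPM. The groups overlapped over their whole EPR fl/fl range, and the log2 fold change was -0.02 (SE 0.25, 95% interval -0.56 to 0.53). A change of up to about that size in either direction lies within this interval. The size of change needed for a call was not worked out. Mst1, on chr9:108080436-108085003 (plus strand), was below the filter of 1 CPM in at least 4 libraries and was not tested. It had 1 to 4 reads per EPR fl/fl library and 1 to 8 reads per EPR cKO library, 16 reads and 18 reads in all. Macrophage-stimulating protein, like HGF activator, is known mainly as a product of the liver. Of the 50-base stretches in the transcripts of Hgf, 6.02% occurred elsewhere among annotated transcripts on either strand, most often in those of Gm43489. For Mst1 the share was 4.29%, most often with Rnf123 on the opposite strand. The counted exons of Hgf shared 0 bases with Gm43489, and those of Mst1 shared 3.58% with Rnf123. Some of these few reads may therefore be uncertain.

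The receptors were an order of magnitude above Hgf in CPM, and much further above Mst1. Met, on chr6:17463800-17573980 (plus strand), ran from 65.55 CPM through a median of 77.4 CPM to 85.74 CPM in EPR fl/fl. In EPR cKO it ran from 85.99 CPM through a median of 95.42 CPM to 100.5 CPM. The groups did not overlap, though the highest EPR fl/fl library (replicate 1) and the lowest EPR cKO library (replicate 3) nearly touched. The log2 fold change of Met was 0.30 (SE 0.07, 95% interval 0.15 to 0.46), higher in EPR cKO. Mst1r, on chr9:107906873-107920383 (plus strand), ran from 48.87 CPM through a median of 55.29 CPM to 70.56 CPM in EPR fl/fl, against from 58.11 CPM through 71.42 CPM to 75.12 CPM in EPR cKO. Its groups overlapped, with EPR fl/fl replicate 6 at the level of the EPR cKO libraries. The log2 fold change of Mst1r was 0.27 (SE 0.09, 95% interval 0.07 to 0.48) and did not pass an adjusted p of 0.05.

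The second protease, St14, differed in sign from Hgfac. St14, on chr9:31089402-31131853 (minus strand), encodes matriptase, which is anchored in the membrane of epithelial cells. It ran from 265.3 CPM through a median of 268.8 CPM to 369.5 CPM in EPR fl/fl, where replicates 1 to 4 lay within 5 CPM of each other and replicates 5 and 6 above them. In EPR cKO it ran from 267.6 CPM through a median of 380.8 CPM to 407.5 CPM, with replicates 1 and 4 at the level of the controls. The log2 fold change was 0.28 (SE 0.12, 95% interval 0.02 to 0.55) and did not pass an adjusted p of 0.05. It passed only narrowly without EPR cKO replicate 1 (0.33), where 21.8% of all tested genes were called, against 2.46% with all libraries. Per kilobase of exon, the ratio of Hgfac to St14 was 0.585 in EPR fl/fl, against 0.175 in EPR cKO, from log2 ratios of -0.77 ± 0.39 and -2.52 ± 0.15 (SD, n = 6) that did not overlap.

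The inhibitors were among the most abundant of the 8 genes. Spint1, on chr2:119237362-119249527 (plus strand), ran from 201.5 CPM through a median of 215.8 CPM to 229.8 CPM in EPR fl/fl. In EPR cKO it ran from 246.1 CPM through a median of 269 CPM to 299.4 CPM, and every EPR cKO library lay above every EPR fl/fl library. The log2 fold change of Spint1 was 0.33 (SE 0.07, 95% interval 0.18 to 0.48), higher in EPR cKO. Spint2, on chr7:29256341-29281912 (minus strand), ran from 643.6 CPM through a median of 685 CPM to 738.7 CPM in EPR fl/fl, against from 615.2 CPM through 809.7 CPM to 831.4 CPM in EPR cKO. Replicates 1 and 4 of EPR cKO, the same as for St14, lay within or below the control range for Spint2. Its log2 fold change of 0.15 (SE 0.09, 95% interval -0.05 to 0.34) did not pass an adjusted p of 0.05. The ratio of the protease St14 to the inhibitor Spint1 per kilobase was 1.03 in EPR fl/fl, against 0.994 in EPR cKO, with overlapping groups.

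Of the 7 genes tested, 1 was called lower in EPR cKO (Hgfac), 2 were called higher (Met and Spint1) and 4 were not called, at an adjusted p of 0.05. Over all tested genes 2.46% were called, 1.57% lower and 0.884% higher. The 6 EPR cKO libraries lay below the 6 EPR fl/fl libraries for 1 of the 7 genes and above them for 2, against 1.47% and 1% of all tested genes. These counts come from the difference on which the genes were selected and describe them without testing them. The median log2 fold change of the 7 genes was 0.27 and that of all tested genes was 0.02. The calls of Met and Spint1 depended on the settings, being kept in 3 and 4 of 7 other analyses and in 2 and 4 of 12 analyses that left out 1 library. The call of Hgfac was kept in all 19. These analyses reuse the same libraries, so they describe how the calls depend on the settings and give no independent support.

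The level of the epithelial markers in each library was set beside these values. The 10 markers had a median log2 fold change of 0.25, although 0 of them were called. Relative to the mean of these 10 markers within each library, Hgfac was lower by a log2 difference of -1.73, and its groups did not overlap. The same differences were 0.04 for Met, 0.01 for Mst1r, 0.01 for St14, 0.06 for Spint1, -0.13 for Spint2 and -0.35 for Hgf, each with overlapping groups. Met and Spint1 were separated between groups in CPM but not relative to the epithelial markers. Dividing by markers that were themselves higher in EPR cKO lowers the difference of every gene. The part of epithelial content in these differences was not tested. With the tissue score as a covariate, a setting added after the data were seen, the log2 fold change was -1.64 for Hgfac, 0.23 for Met and 0.25 for Spint1, and only Hgfac was called. It was 0.26 for Mst1r, 0.13 for St14, 0.07 for Spint2 and 0.29 for Hgf. The value of Hgf was thus opposite in sign to its difference relative to the epithelial markers.

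**Figure D2:**
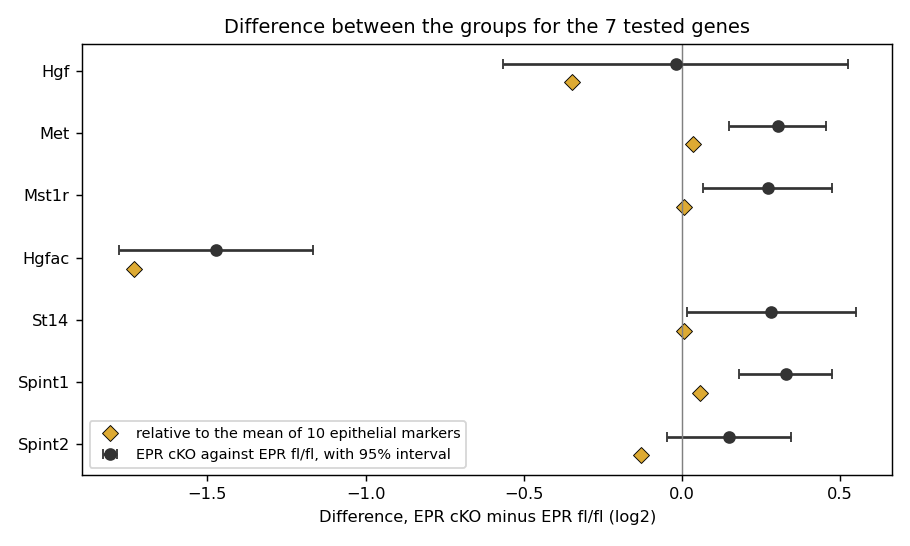
Difference between EPR cKO and EPR fl/fl in log2 units (horizontal axis) for the 7 tested genes, as the fitted log2 fold change with its 95% interval (black circles and bars) and as the difference relative to the mean of 10 epithelial markers (yellow diamonds, no interval drawn). Hgfac is at -1.47 and -1.73, while Met, Mst1r, St14 and Spint1 move from 0.27 to 0.33 down to 0.01 to 0.06.

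Goblet cells are the mucus-producing cells of the colon epithelium. All 8 goblet markers had a negative log2 fold change (median -0.80). By edgeR's quasi-likelihood test with Benjamini-Hochberg adjustment, 5 of them fell in EPR cKO. These were Muc2 (adjusted p = 0.000741), Tff3 (0.017), Zg16 (0.0234), Clca1 (0.024) and, at the edge of the threshold, Spdef (0.0497). The groups overlapped for Zg16, and how these calls depend on the settings was not examined. Over all tested genes 1.57% were called lower. The 8 markers summed to 13390 to 28450 CPM in EPR fl/fl, against 6152 to 8565 CPM in EPR cKO. Relative to the mean of these 8 markers, Hgfac was at -3.15 ± 0.20 in EPR fl/fl, against at -3.65 ± 0.23 in EPR cKO (log2 ratio, SD, n = 6), a difference of -0.50 with overlapping groups. The part of goblet cells in the Hgfac difference was not tested. In the 4 other lists with at least 5 tested markers of which all were negative, these were 5 adipocyte markers (median -1.54), 5 endothelial markers (-0.56), 8 smooth muscle markers (-0.56) and 5 macrophage markers (-0.36). Adipocyte markers summed to 364.2 to 1225 CPM in EPR fl/fl, against 25.69 to 850.2 CPM in EPR cKO, and the sums of the endothelial and macrophage lists overlapped likewise. Their part in the result was not tested either. The 7 hepatocyte markers summed to 1.84 to 4.88 CPM in EPR fl/fl, against 1.153 to 4.83 CPM in EPR cKO. The highest of them, Ttr, reached at most 4.24 CPM and Alb at most 2.22 CPM, while Fgb was at 0 in all 12 libraries. The part of liver RNA in the Hgfac values was not tested.

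Smooth muscle markers summed to 2986 to 5271 CPM in EPR fl/fl, against 966.8 to 8925 CPM in EPR cKO, and fibroblast markers to 987.3 to 1754 CPM and 467.2 to 3102 CPM. Across the 12 libraries the correlation with the tissue score was highest for Spint1 (Pearson r = 0.75, Spearman rho = 0.69) and Met (r = 0.69, rho = 0.64), and for Hgfac r was -0.43 (rho = -0.35). The score was itself higher in 5 of the 6 EPR cKO libraries than in any EPR fl/fl library, and the genes were selected on the group difference. The groups therefore enter these pooled values, which are given as a description without a p. Without EPR cKO replicates 5 and 6, the 2 libraries farthest from the median score, r for Spint1 was 0.48. Within the groups of 6, no exact adjusted p over the 8 genes passed 0.05: for Spint1 r was 0.21 in EPR fl/fl (exact adjusted p = 0.79) and 0.70 in EPR cKO (exact adjusted p = 0.189).

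Levels between genes were compared as CPM per kilobase of exon, in EPR fl/fl. Spint2 came first at 493 ± 26.4 CPM per kb (SD, n = 6), followed by St14 at 89.5 ± 12.9, Spint1 at 86.5 ± 3.89, Hgfac at 52.8 ± 11.2, Mst1r at 12.1 ± 1.62, Met at 11.2 ± 1.01, Hgf at 1.31 ± 0.30 and Mst1 at 0.056 ± 0.033 CPM per kb. In control colon, Hgfac mRNA was above that of Mst1r, the next gene in the order, in every library, by 4.33-fold on average. Of the 7 pairs next to each other in this order, 5 differed (exact sign-flip permutation test within libraries, two-sided, p = 0.03125, the smallest that 6 libraries allow, adjusted p = 0.0438). The order was taken from these same libraries, so the p-values describe how far the libraries agreed on it. They do not measure error from exon length or annotation. St14 and Spint1 did not differ beyond their spread (1.03-fold, exact p = 0.812), nor did Mst1r and Met (1.08-fold, exact p = 0.312). In EPR cKO, Hgfac kept its place in the order at 19.0 ± 2.90 CPM per kb, but only 1.3-fold above Mst1r (higher in 6 of 6 libraries, exact p = 0.03125). Met exceeded Hgf per kilobase 8.65-fold in EPR fl/fl, against 11.3-fold in EPR cKO, with overlapping log2 ratios.

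**Figure D3:**
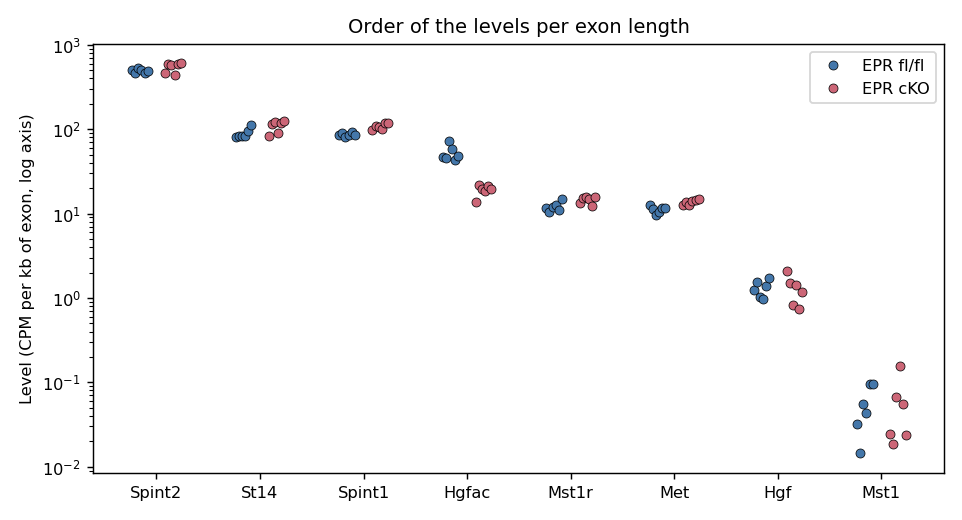
Level per kilobase of exon (vertical log axis, CPM per kb) of the 8 genes in the order of their EPR fl/fl means, with 1 point per library (blue for EPR fl/fl, red for EPR cKO). Spint2 stands highest at 493 CPM per kb, St14 and Spint1 share a level, and Hgfac drops from 52.8 to 19.0 CPM per kb to lie just above Mst1r and Met.

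The 5 tested genes whose log2 CPM over the 12 libraries was most like that of Hgfac were Atp2c2 (Pearson r = 0.988), Rap1gap (0.987), Bace2 (0.986), Ceacam10 (0.985) and Ccl6 (0.983). The libraries share the 2 groups, and all 5 genes were lower in EPR cKO, which raises these values, so they are a description without a p. Within the 6 EPR fl/fl libraries r was 0.945 for Atp2c2 and for Rap1gap, 0.879 for Bace2, 0.769 for Ceacam10 and 0.781 for Ccl6. Within the 6 EPR cKO libraries r ran from 0.809 (Bace2) to 0.971 (Rap1gap). Rap1gap, which encodes a GTPase-activating protein for Rap1, was at 117.8 ± 27.2 CPM in EPR fl/fl, against 54.6 ± 8.01 CPM in EPR cKO (SD, n = 6), and of the 5 genes was the nearest to Hgfac in level in EPR fl/fl but not in EPR cKO. In both groups the extremes were shared: Hgfac, Rap1gap, Bace2, Atp2c2 and Ccl6 were highest in EPR fl/fl replicate 3, and each was lowest among EPR cKO libraries in replicate 1.

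**Figure D4:**
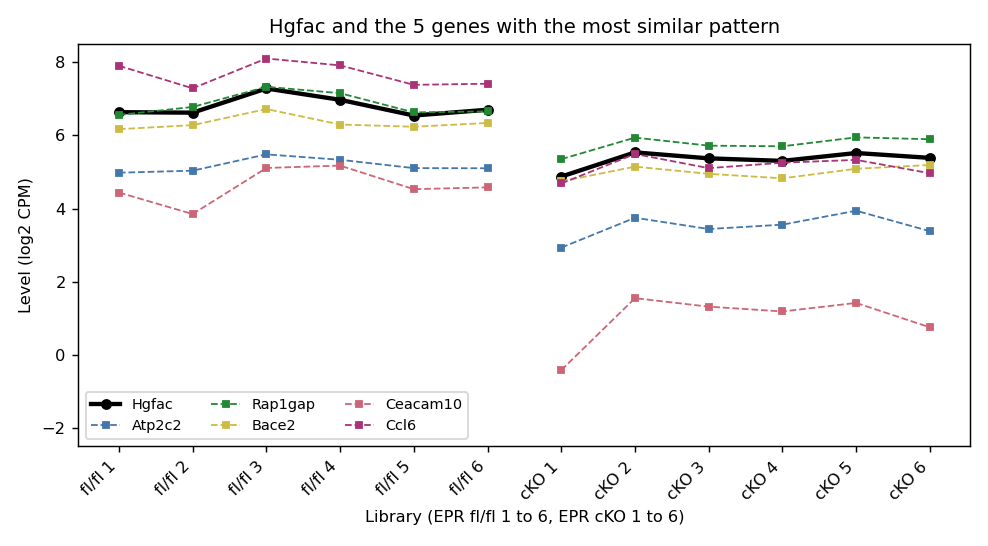
Level in log2 CPM (vertical axis) of Hgfac (black) and the 5 genes with the most similar pattern (coloured, dashed) in each of the 12 libraries (horizontal axis), with lines joining libraries only to guide the eye. All 6 genes step down between EPR fl/fl and EPR cKO, and their lowest points are in EPR cKO replicate 1.

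Genes on either side of Hgfac were tested to see how far along the chromosome the difference reached. The 3 nearest tested genes on the lower side were Rgs12 (1.86 kb away), Msantd1 (118 kb) and Htt (129 kb), and those on the higher side were Dok7 (8.34 kb), Lrpap1 (43.1 kb) and Gm43860 (503 kb). Of the 6, only Lrpap1, the gene of a chaperone of LDL receptor family proteins, fell in EPR cKO, from 47.2 ± 3.8 to 35.3 ± 5.22 CPM (SD, n = 6; log2 fold change -0.42, SE 0.10, adjusted p = 0.039 by edgeR's quasi-likelihood test with Benjamini-Hochberg adjustment). Lrpap1 ran from 42.86 to 52.05 CPM in EPR fl/fl, against from 28.48 to 44.37 CPM in EPR cKO, overlapping through EPR cKO replicate 1. Its call was kept in 7 of 7 other analyses, but in only 2 of 12 analyses that left out 1 library. These 2 were without EPR fl/fl replicate 6 and without EPR cKO replicate 1. The call was lost with the tissue score as covariate. Over all tested genes 1.57% were called lower. The nearest neighbour, Rgs12, had a log2 fold change of -0.08 (SE 0.15, 95% interval -0.41 to 0.25, adjusted p = 0.785). Dok7 was at -0.52 (SE 0.26, adjusted p = 0.308), Msantd1 at -0.33 (adjusted p = 0.568), Htt at 0.10 (adjusted p = 0.495) and Gm43860 at 0.12 (adjusted p = 0.772).

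Beyond the 8 genes, 58 other genes of HGF and MET signalling were listed by role, and 50 of them passed the filter. The lists were drawn up with earlier results of these data known. The p-values of their genes therefore describe them and give no independent support. Hpn was called lower, having passed the filter only through EPR fl/fl, Itgb4 rose and 48 did not pass an adjusted p of 0.05 (edgeR's quasi-likelihood test with Benjamini-Hochberg adjustment over all 15952 genes), beside 2.46% called over all tested genes. At an unadjusted p under 0.05, 2 of the 50 were lower and 6 higher, against 7.12% lower and 11.1% higher over all tested genes. Their median log2 fold change was 0.08, against 0.02 over all tested genes. Without EPR cKO replicate 1, where 21.8% of all tested genes were called, so were 9 of the 50: Hpn, Serpine2, Tfpi, Plat and Nrp1 lower, and Itgb4, Cd44, Map2k1 and Akt1 higher.

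Among 12 other proteases that activate HGF or MSP, or act just before them, 6 were tested and 1 was called lower, against 1.57% of all tested genes. Hpn, on chr7:31098725-31115290 (minus strand), encodes hepsin, a membrane serine protease that can cut the HGF and MSP precursors. It ran from 1.022 CPM through a median of 1.874 CPM to 2.694 CPM in EPR fl/fl, against from 0.2662 CPM through 0.4963 CPM to 0.9752 CPM in EPR cKO. The groups did not overlap at 5 to 85 reads per library, and the log2 difference was -1.64 (SE 0.35, adjusted p = 0.0254). Hpn reached the filter of 1 CPM in 6 EPR fl/fl libraries and 0 EPR cKO libraries, so it entered the test only through the group in which it was higher, and its call is not independent of the filter. With no filter on low counts the adjusted p was 0.0255. The call was kept in 7 of 7 other analyses, but in only 4 of 12 analyses that left out 1 library. It was lost with the tissue score as covariate (-1.29). The abundant members of this list did not pass the test. Tmprss4, a membrane serine protease, was at 160.6 ± 17.3 CPM in EPR fl/fl, against 179.2 ± 27.2 CPM in EPR cKO (adjusted p = 0.446). Tmprss2 was at 154.2 ± 14.7 and 162.4 ± 25.1 CPM (adjusted p = 0.721), and Prss8, the gene of prostasin, an epithelial protease that acts together with matriptase, at 29.1 ± 4.15 and 24.3 ± 6.27 CPM (adjusted p = 0.425). Prss8 was called lower only with the tissue score as covariate (-0.64, adjusted p = 0.0384).

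Of 7 other serine protease inhibitors, 6 were tested and 0 were called in either direction. At an unadjusted p under 0.05, 1 was lower and 0 higher, against 7.12% and 11.1% of all tested genes. DESeq2's Wald test also called 0 and limma-voom called Tfpi lower. Serpine2, protease nexin-1, was at 13.8 ± 4.61 CPM in EPR fl/fl, against 8.85 ± 9.79 CPM in EPR cKO (adjusted p = 0.528). Tfpi, tissue factor pathway inhibitor, was at 10.1 ± 1.91 and 5.42 ± 3.38 CPM (adjusted p = 0.154), and its relative Tfpi2 at 5.78 ± 0.84 and 7.05 ± 1.73 CPM (adjusted p = 0.374).

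All 8 listed partners of MET at the cell surface were tested, and 1 of them rose, against 0.884% of all tested genes called higher. Itgb4, on chr11:115974709-116008412 (plus strand), encodes integrin beta 4, a hemidesmosome component reported to act with MET. It ran from 128.2 CPM through a median of 135.9 CPM to 151.1 CPM in EPR fl/fl, against from 158 CPM through 196.8 CPM to 219.2 CPM in EPR cKO. The groups did not overlap, and the log2 fold change was 0.48 (SE 0.08, 95% interval 0.30 to 0.66, adjusted p = 0.00819). The call was kept in all 12 analyses that left out 1 library, which share most of their libraries, and with the tissue score as covariate (0.52). Its partner chain Itga6 was at 216.6 ± 29.9 and 241.8 ± 43.1 CPM (adjusted p = 0.507). Plxnb2, a semaphorin receptor, was at 481.3 ± 49.5 and 548.9 ± 67.5 CPM (adjusted p = 0.319), and Sdc1, a heparan sulphate proteoglycan that can bind HGF, at 227.7 ± 26.3 and 256.3 ± 41.3 CPM (adjusted p = 0.45).

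The intracellular part of the pathway did not pass the test. Of 21 adaptors and signal carriers, 0 were called. At an unadjusted p under 0.05, 0 were lower and 3 higher, against 7.12% and 11.1% of all tested genes. DESeq2's Wald test called Map2k1 higher and limma-voom called 0. Crk, an adaptor, was at 198.6 ± 10.2 CPM in EPR fl/fl, against 216.3 ± 15.5 CPM in EPR cKO (adjusted p = 0.329). Mapk3, the kinase ERK1, was at 176.6 ± 17.2 and 208.5 ± 22.4 CPM (adjusted p = 0.172), and Pik3r1, a regulatory subunit of PI3-kinase, at 192.1 ± 23.7 and 179.2 ± 19.6 CPM (adjusted p = 0.585). Of 7 genes that damp receptor signalling, 0 were called by edgeR, DESeq2 or limma-voom, and 0 at an unadjusted p under 0.05. The phosphatase gene Ptprj had a log2 fold change of -0.14 (95% interval -0.35 to 0.07), the ubiquitin ligase gene Cbl 0.16 (-0.24 to 0.55) and Lrig1 -0.10 (-0.25 to 0.04). Of 3 other matriptase substrates, 2 were tested and 0 were called by any of the 3 tools. At an unadjusted p under 0.05, 1 was higher, against 11.1% of all tested genes. F2rl1, the protease-activated receptor PAR2, was at 82.3 ± 7.27 and 92.7 ± 6.86 CPM (adjusted p = 0.241), and Cdcp1 at 119.8 ± 11.8 and 108.2 ± 17.3 CPM (adjusted p = 0.495).

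**Figure D5:**
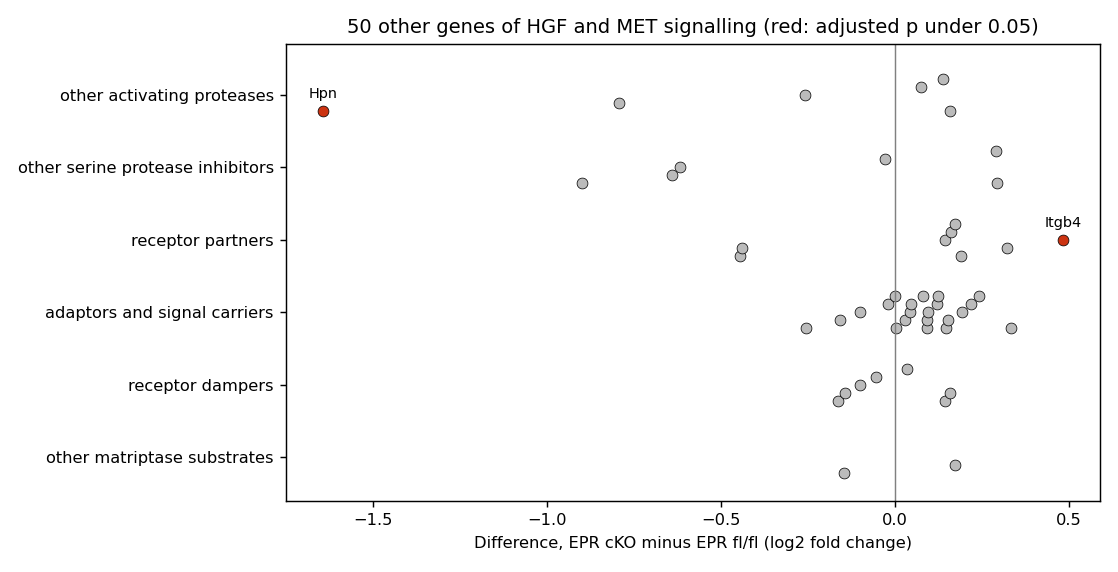
Log2 fold change between EPR cKO and EPR fl/fl (horizontal axis) of the 50 tested genes of HGF and MET signalling other than the 8 described first, grouped by role (rows), with 1 point per gene. Red points passed an adjusted p of 0.05 and are Hpn at -1.64 and Itgb4 at 0.48, while the grey points did not.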

How the data were processed

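Total RNA of the proximal colon was sequenced in 12 mice, 6 EPR fl/fl and 6 EPR cKO, after ribosomal RNA depletion with a stranded kit. The authors deposited a table of raw counts per gene, with exon length, made from paired reads aligned with STAR 2.5.3a to mm10 and counted with featureCounts on an Ensembl annotation, after base calling with bcl2fastq 2.20.0.422 and trimming. The strand setting of the counting is not given in the sources used here, so genes that overlap on opposite strands cannot be told apart. The submitters' processing notes also name R 3.5.1 and deepTools.

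The 8 genes and the gene lists were chosen with earlier results of these data known. Genes with at least 1 CPM in at least 4 libraries, the filter of the study, were kept (15952 of 55376), scaled by TMM and fitted with edgeR 4.0.16 (glmQLFit and glmQLFTest, R 4.3.3), and p-values were adjusted by Benjamini-Hochberg over all tested genes with a threshold of 0.05. Values are CPM on TMM-scaled libraries, except that the CPM of EPR and of the filter used total counts without TMM. Log2 CPM used a prior count of 2. Intervals are 95%, and over the tested genes the SE (log2) had a median of 0.14. The named genes were these 8 genes, EPR, the 3 nearest tested genes on each side of Hgfac, every called gene of each pathway list with up to 3 others of highest mean CPM, and the 5 genes most correlated with Hgfac. Plat, Nrp1, Cd44, Map2k1 and Akt1, called only under some settings, were named after their values were seen, as were the goblet and hepatocyte markers given by name. The scores used 10 epithelial, 8 smooth muscle and 8 goblet markers. Permutation tests of correlations used 100000 resamples over 12 libraries and were exact within groups of 6. The procedures were tested on simulated data. Alternatives were other scalings and filters, DESeq2 1.42.0, limma-voom (limma 3.58.1), a replicate block and leaving out each library. Each library comes from its own mouse. No amino acid sequences were used here.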

Additional observations from a re-analysis of the deposited data

Results flagged for a closer look

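The level of Mst1 in EPR cKO replicate 4 was 0.3575 CPM, from 8 reads, while the other 5 EPR cKO libraries lay between 0.0424 and 0.1503 CPM. The level of Bace2, one of the genes most like Hgfac, in EPR fl/fl replicate 3 was 105.4 CPM, while the other EPR fl/fl libraries lay between 71.98 and 81 CPM. In both, the gap to the nearest library exceeded Dixon's 95% critical value for the share of the range. These were 2 of 42 sets of 6 libraries examined, over 21 genes, and chance alone gives about 1 in 20.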

How the results depend on the processing

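The log2 fold change of Hgfac stayed between -1.50 and -1.46 under 7 other analyses, between -1.52 and -1.36 when each library was left out, and was -1.64 with the tissue score as covariate, a setting added after the data were seen. The count of the 8 genes called was 3 (1 lower, 2 higher). It was 1 with total counts without TMM, with no filter on low counts, with the replicate block and with the tissue score as covariate, and ran from 1 to 4 when each library was left out. The count of called pathway genes was 2, was 2 with the replicate block, and ran from 1 to 9 when each library was left out, 9 without EPR cKO replicate 1. The count of called Hgfac neighbours was 1, was 0 with the tissue score as covariate, and ran from 0 to 1 when each library was left out. The count of the 8 genes with an adjusted permutation p under 0.05 for the pooled correlation with the tissue score, which takes no account of the groups and supports nothing here, was 1, but 2 with total counts without TMM, 0 with DESeq2 size factors and 3 with epithelium markers alone, and it ran from 0 to 5 when each library was left out, 5 without EPR cKO replicate 4. The 5 neighbouring pairs in the order of levels remained 5 with a prior count of 0.5 and in EPR cKO, and with 5 libraries that exact test cannot go below p = 0.0625. No called direction reversed (Hgf, not called, changed sign under some settings), and the causes of the changes were not tested.

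Over all 15952 genes, 251 were called lower and 141 higher; without TMM the split was 247 and 39, with no filter 243 and 54, with the DESeq2 Wald test 473 and 440, with the replicate block 178 and 67, and without EPR cKO replicate 1 it was 2273 and 1178. Leaving out any other library gave 145 to 244 lower and 28 to 123 higher. With the replicate block Hgfac was the one of the 8 genes called. Libraries of the same number correlated in their deviations between -0.242 and 0.34, over 0.1 in 2 of 6 pairs. In 1 of 6 pairs each library correlated best with its own number. The labels give the number and no pairing, and 6 such correlations cannot decide whether the libraries were paired. Low counts limited Hgf, Mst1 and Hpn.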
